A study of Bos taurus with 6 samples.

Results

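The semaphorin, plexin, neuropilin, slit, roundabout and netrin genes were examined in bovine embryonic stem cells grown on 2 kinds of feeder layer. The members were chosen by symbol as the semaphorins, the plexins, NRP1 and NRP2, the slits, the roundabout receptors, the netrins and netrin-G genes, the UNC5 receptors, DCC and NEO1. The rule found 49 genes among the 19163 genes of the count table, and all 49 were also found in the per-length expression table. PLXNA3 was not analysed here. All 6 libraries came from F7, a single stem cell line derived from in vitro fertilised Holstein Friesian embryos, so they describe 1 line. MC-F7 (named 1M-F7 in the labels) was cultured on mouse embryonic fibroblasts (MEFs) treated with mitomycin C, which stay alive but stop dividing. MT-F7 was cultured on MEFs fixed with methanol, which are dead. Each group had 3 libraries, described as 15 passages. Both groups were kept in the same medium, with fibroblast growth factor and the WNT inhibitor IWR1, but the medium was changed daily for MC-F7 and every other day for MT-F7, so the feeder and the feeding interval cannot be told apart. The question was which guidance genes differed with the feeder layer.

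Guidance molecules were first described as cues that attract or repel growing axons, and they also act on cell adhesion, migration and vessel growth. Semaphorins signal through plexins, and most class 3 semaphorins, which are secreted, need a neuropilin as the part of the receptor that binds them. Slits are secreted ligands of the roundabout (ROBO) receptors. The secreted netrins are laminin-like ligands whose receptors are DCC, neogenin (NEO1) and the UNC5 proteins. This does not extend to the netrin-G genes, which are counted with the netrins here.

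The libraries held 21958386 to 24933430 gene counts, and 3 counts, taken here as the detection floor, corresponded to 0.116 to 0.140 counts per 1000000 (CPM). CPM below are normalized for library size and composition, and they are compared between libraries of the same gene. Genes of the mitochondrial genome took 16.3 to 28.3% of the counts, and the share was highest in replicate 3 of both groups. Nothing in the labels says that the replicates were separate cultures, so the p-values measure only the spread between these libraries. Before RNA extraction the dissociated cells were left on gelatin and the floating cells were taken. Reads of remaining mouse cells cannot be told apart from bovine reads in the counts. The authors report a higher alignment rate to the bovine genome in MT-F7 and propose that fixed feeders reduced feeder contamination. Mouse reads may therefore be more frequent in MC-F7, and their part in the guidance gene results was not tested. The pluripotent markers POU5F1 and NANOG were detected in all 6 libraries. They were lower in MT-F7, by 2.29-fold (edgeR adjusted p = 0.0012) and 4.07-fold (edgeR adjusted p = 1.1e-05), respectively.

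Several neighbouring lists differed between the groups. Genes are counted as higher or lower in MT-F7 at an edgeR adjusted p under 0.05. Of all genes tested, 11.9% were higher and 11.3% lower by this rule. Summed over the list, the pluripotent markers were at 1374 to 2058 CPM in MC-F7 against 755 to 883 CPM in MT-F7, and 6 of 8 tested were lower in MT-F7. The 14 fibroblast markers summed to 377 to 501 CPM in MC-F7 against 885 to 1111 CPM in MT-F7, with 5 higher and 1 lower. Most of this rise came from ACTA2 (85.3 to 309 CPM) and FBLN1 (108 to 327 CPM). TWIST2 was the lower one (1.81 to 0.406 CPM), and 8 were not called. The neuron and neural progenitor markers summed to 708 to 850 CPM in MC-F7 against 1055 to 1179 CPM in MT-F7, with 3 higher and 1 lower of 9 tested. PAX6, MAP2 and STMN2 were higher, and ELAVL3 was lower (4.08 to 0.799 CPM). The other 5 were not called, among them NES (312 to 412 CPM) and TUBB3 (202 to 174 CPM). DCX, a marker of young neurons that was too low to be tested, had no count in MC-F7 against at most 0.255 CPM in MT-F7. NEUROG2, also too low, went the other way, with raw counts of 0, 11 and 5 in MC-F7 and none in MT-F7. NEUROD1, too low as well, had raw counts of 0, 2 and 4 in MC-F7 against 2, 0 and 5 in MT-F7. The endothelial markers summed to 29.6 to 32.8 CPM in MC-F7 against 35.1 to 40.8 CPM in MT-F7, with 2 higher and 2 lower of 7 tested, and the defining markers PECAM1, CDH5 and ERG stayed at or below 0.239 CPM in every library. TEK alone was at 2.15 to 2.86 CPM in MC-F7 against 11.9 to 13.2 CPM in MT-F7, and without it the list summed to 27.5 to 30.3 CPM and 22.1 to 27.7 CPM, respectively. The part of these cell types in the guidance gene results was not tested. In such bulk libraries fewer cells of a type and less RNA per cell cannot be told apart.

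Guidance genes differed between the feeder layers in both directions. ROBO3, ROBO1, PLXNA2, SEMA3E, SEMA3A, SLIT2 and NTN1 were among those higher in MT-F7, and PLXND1, NRP1, ROBO4, NTN5 and NTNG1 were lower. Of the 49 members, 45 had enough counts to be tested, and 16 of them (35.6%) had an adjusted p under 0.05 in edgeR's quasi-likelihood test, against 23.2% of all 13001 genes tested. Of the 16 called, 11 were higher in MT-F7 (11.9% of all genes were) and 5 were lower (11.3% of all genes were). The median log2 fold change of the 45 was 0.37, beside -0.0026 over all genes tested, and it was 0.18 without MT-F7 replicate 3. With an absolute log2 fold change over 1.5 and an unadjusted p under 0.05, 7 of the 45 passed, against 6.58% of all genes, and with an adjusted p under 0.05 and an absolute log2 fold change over 1, 11 passed, against 11.5% of all genes. In 22 of the 45 the 3 values of one group lay entirely above those of the other, 15 with MT-F7 higher and 7 with MC-F7 higher, and 40.0% of all genes tested showed such a gap. By role, 6 of 27 tested ligands were higher and 2 lower, and 5 of 18 tested receptors were higher and 3 lower. The filter on low counts was passed in all 6 libraries by 36 of the 45, which include 14 of the 16 called genes. SEMA3E and ROBO2 are the other two. SEMA3E passed it in 0 MC-F7 and 3 MT-F7 libraries and ROBO2 in 1 and 3. A difference between the groups was thus built into their being tested. Of the uncalled genes without overlap, DCC passed it in 1 MC-F7 and 3 MT-F7 libraries and NTN3 in 2 and 3, which limits their gaps likewise.

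**Figure D1:**
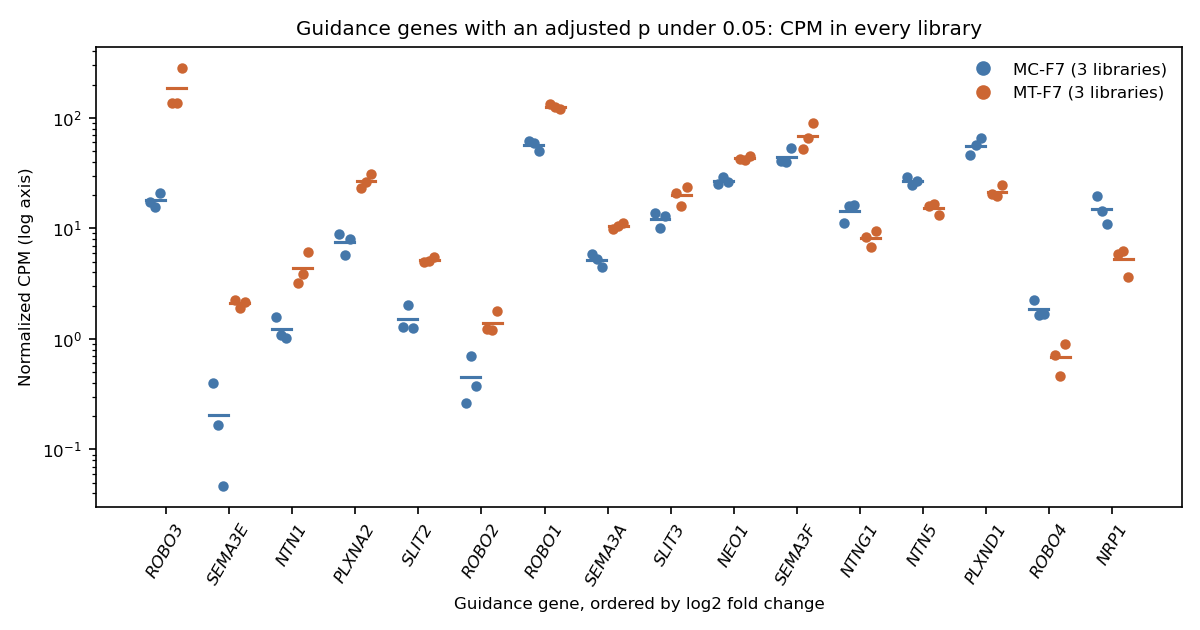
Normalized CPM (log axis) of the 16 called guidance genes in each library, with MC-F7 in blue, MT-F7 in orange and a bar at each group's mean, ordered by log2 fold change. The groups overlap in SEMA3F, and in the other genes shown they are apart, with ROBO3 and SEMA3E having the largest increases and NRP1 the largest decrease.

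Among the secreted class 3 semaphorins, 3 of 6 tested members were higher in MT-F7, beside 11.9% of all genes tested. SEMA3A, which repels axons through NRP1 and class A plexins, was at 5.84, 5.31 and 4.49 CPM in the MC-F7 libraries and at 9.96, 10.5 and 11.1 CPM in the MT-F7 libraries. Every MT-F7 library was above every MC-F7 library. The means were 5.21 ± 0.68 and 10.5 ± 0.56 (SD, n = 3), an increase of 2.02-fold (log2 fold change 1.01, SE 0.19, edgeR adjusted p = 0.0025). SEMA3E differs from its relatives in binding PLXND1 directly, without a neuropilin. Its raw counts were 9, 4 and 1 in MC-F7 against 57, 49 and 51 in MT-F7. It was thus close to the detection floor in MC-F7 against clearly detected in MT-F7. The log2 fold change was 3.33 (SE 0.53, edgeR adjusted p = 0.00070), with a 95% interval of 2.17 to 4.49, and these describe a gene that entered the test only through its MT-F7 counts. SEMA3F, a ligand of NRP2, was at 41.0, 39.5 and 53.5 CPM in MC-F7 against 52.2, 65.8 and 89.6 CPM in MT-F7. The lowest MT-F7 library was below the highest MC-F7 library, and the 1.55-fold increase (log2 fold change 0.63, SE 0.20, edgeR adjusted p = 0.039) had the highest adjusted p of the 16 calls. Without MT-F7 replicate 3 its log2 fold change was 0.39 (edgeR adjusted p = 0.13), and it kept its call in 2 of 6 leave-one-out fits.

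The other class 3 members did not pass the test. SEMA3B, the class 3 member with the highest CPM in MC-F7, averaged 70.5 ± 19.2 CPM there and 45.8 ± 18.2 CPM in MT-F7 (n = 3 each, edgeR adjusted p = 0.10), with overlapping groups. Without MT-F7 replicate 3 its log2 fold change was -0.996 with an edgeR adjusted p of 0.0066. SEMA3C averaged 1.46 and 1.90 CPM, and SEMA3G 0.640 and 0.548 CPM. SEMA3D was too low to be tested, with raw counts of 0, 1 and 1 in MC-F7 against 12, 2 and 2 in MT-F7.

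No membrane-bound semaphorin passed edgeR's test. SEMA4D, known for signalling through PLXNB1, had the highest per-length level of the semaphorins over the 6 libraries. It was at 142, 128 and 134 CPM in MC-F7 against 126, 103 and 111 CPM in MT-F7. Although the groups did not overlap, the log2 fold change of -0.25 (SE 0.15, 95% interval -0.56 to 0.068) did not pass the test (edgeR adjusted p = 0.25). None of the 6 class 4 genes (SEMA4A, SEMA4B, SEMA4C, SEMA4D, SEMA4F and SEMA4G) passed, with 0 at an unadjusted p under 0.05 and 0 by DESeq2 or by limma, and their log2 fold changes lay between -0.28 and 0.41. In the 7 genes of classes 5 to 7 (SEMA5A, SEMA5B, SEMA6A, SEMA6B, SEMA6C, SEMA6D and SEMA7A) 0 passed edgeR's test, 3 had an unadjusted p under 0.05 and 1 passed by DESeq2. These 3 were SEMA5B (15.0 to 9.57 CPM, edgeR adjusted p = 0.051), SEMA6B (5.26 to 3.35 CPM, edgeR adjusted p = 0.077) and SEMA6D (5.26 to 7.47 CPM, edgeR adjusted p = 0.11), and the one that passed by DESeq2 was SEMA5B. SEMA7A, which is anchored to the membrane by a lipid and binds PLXNC1, averaged 15.8 and 11.8 CPM (edgeR adjusted p = 0.14).

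The plexins, the receptors of the semaphorins, split in direction. PLXNA2, a receptor of class 3 and class 6 semaphorins, had raw counts of 202, 140 and 171 in MC-F7 against 585, 675 and 735 in MT-F7. The groups were far apart, with means of 7.58 ± 1.61 and 26.9 ± 4.01 CPM (n = 3), a 3.55-fold increase (log2 fold change 1.83, SE 0.20, edgeR adjusted p = 4.2e-05). PLXND1, the receptor of SEMA3E, was at 45.8, 56.8 and 65.9 CPM in MC-F7 against 20.3, 19.7 and 24.8 CPM in MT-F7. It was lower in every MT-F7 library, 2.60-fold on average (log2 fold change -1.38, SE 0.18, edgeR adjusted p = 0.00014), while its ligand SEMA3E was higher.

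PLXNB2 had the highest per-length level of all members in both groups. It was at 325, 337 and 442 CPM in MC-F7 against 457, 407 and 652 CPM in MT-F7, so that 1 MC-F7 library exceeded 1 MT-F7 library. The log2 fold change of 0.46 (SE 0.20) did not pass the test (edgeR adjusted p = 0.12), nor did that of PLXNB1 (44.2 to 63.8 CPM, edgeR adjusted p = 0.14) or of PLXNA1 (30.8 to 38.4 CPM, edgeR adjusted p = 0.27). PLXNB3 and PLXNC1, below 3 CPM in every library, were not called either. PLXNC1 overlaps CEP83 in the RefSeq annotation, whose own log2 fold change was 0.84, and the use of strand in counting is not stated. PLXNA4 was too low to be tested, with raw counts of 0, 3 and 16 in MC-F7 against 6, 3 and 6 in MT-F7.

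The neuropilins, the co-receptors of most class 3 semaphorins, were led by NRP1. It was at 19.8, 14.4 and 10.9 CPM in MC-F7 against 5.90, 6.30 and 3.65 CPM in MT-F7. NRP1 was lower in each MT-F7 library, with means of 15.0 ± 4.50 and 5.28 ± 1.43 CPM (n = 3) and a 2.84-fold difference (log2 fold change -1.51, SE 0.26, edgeR adjusted p = 0.0012). NRP2 stayed between 0.340 and 0.885 CPM with overlapping groups (edgeR adjusted p = 0.84).

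**Figure D2:**
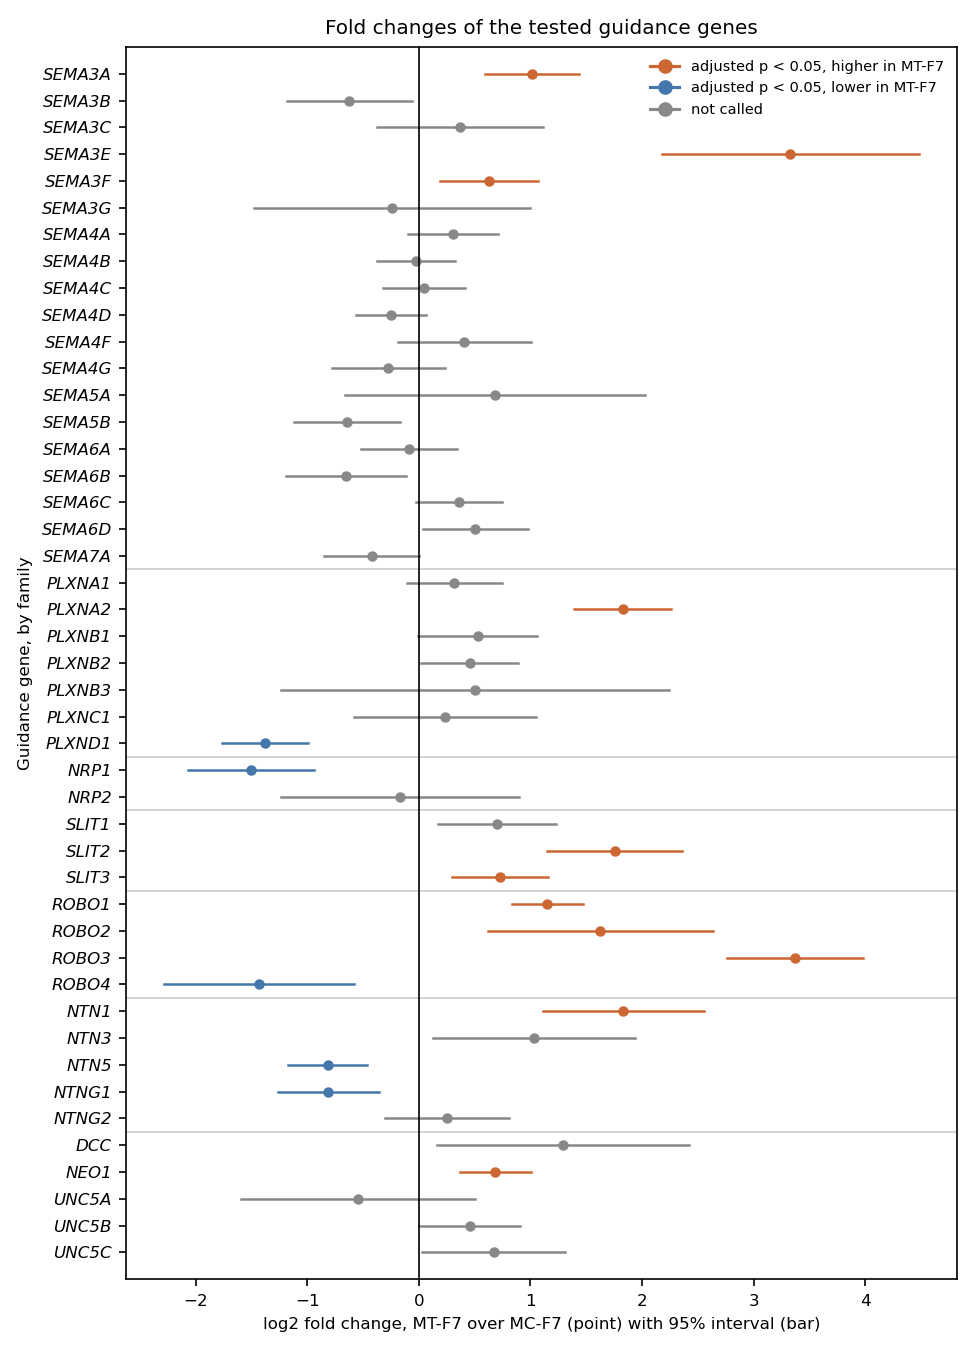
Log2 fold change of MT-F7 over MC-F7 (points) with its 95% interval (bars) for the 45 tested guidance genes, grouped by family with grey lines between families. Orange marks the 11 genes called higher, blue the 5 called lower and grey the 29 not called. The roundabout receptors are the only family with every member called, but ROBO2 passed the low-count filter in 1 MC-F7 and 3 MT-F7 libraries. A difference was thus built into ROBO2 being tested.

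For each of the 3 slits, every MT-F7 library was above every MC-F7 library. SLIT2 was at 1.28, 2.03 and 1.26 CPM in MC-F7 against 4.94, 5.06 and 5.56 CPM in MT-F7. This was a 3.38-fold increase in a gene of low level (log2 fold change 1.76, SE 0.28, edgeR adjusted p = 0.00066). SLIT3, the slit with the highest per-length level, was at 13.9, 9.99 and 12.9 CPM in MC-F7 against 21.0, 16.0 and 23.9 CPM in MT-F7. It rose 1.65-fold (log2 fold change 0.73, SE 0.20, edgeR adjusted p = 0.019) and kept its call in 3 of 6 leave-one-out fits, losing it without MC-F7 replicate 2 or without MT-F7 replicate 1 or 3 (edgeR adjusted p = 0.051 to 0.11). SLIT1 had a similar log2 fold change of 0.70 (4.50 ± 1.02 to 7.32 ± 1.5 CPM, n = 3), the groups did not overlap, and it missed the threshold (edgeR adjusted p = 0.056), which it passed by DESeq2 (adjusted p = 0.047), without the filter on low counts (edgeR adjusted p = 0.048) and by limma on log2(TPM + 1) (adjusted p = 0.048).

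All 4 roundabout receptors passed the test (23.2% of all genes did), with 3 receptors higher and 1 lower. Of these, ROBO2 passed the filter on low counts in 1 MC-F7 and 3 MT-F7 libraries. The calls of ROBO2 and ROBO4 held in 2 and 3 of 6 leave-one-out fits. ROBO3, which is known for steering axons across the midline and, in mammals, for binding slits weakly, had raw counts of 390, 379 and 444 in MC-F7 against 3414, 3519 and 6677 in MT-F7. In CPM these were 17.3, 15.7 and 20.8 against 136, 136 and 284, so MT-F7 replicate 3 was the highest library and the lowest MT-F7 value was far above the highest MC-F7 value. The means were 17.9 ± 2.59 and 185 ± 85.2 CPM (SD, n = 3), a 10.3-fold increase (log2 fold change 3.37, SE 0.28, 95% interval 2.76 to 3.98, edgeR adjusted p = 4.6e-06). Without MT-F7 replicate 3 the log2 fold change was 2.92. ROBO1, the main slit receptor of these cells by level in MC-F7, was at 61.3, 59.4 and 50.1 CPM in MC-F7 against 134, 125 and 121 CPM in MT-F7. The 2.22-fold increase (log2 fold change 1.15, SE 0.15, edgeR adjusted p = 0.00014) had little spread among replicates.

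The remaining roundabout genes were low. ROBO2, a slit receptor closely related to ROBO1, had raw counts of 6, 17 and 8 in MC-F7 against 31, 31 and 42 in MT-F7. Its log2 fold change was 1.62 (SE 0.47, edgeR adjusted p = 0.023), and the call held in 2 of 6 leave-one-out fits, being lost without MC-F7 replicate 1 or 3 and without MT-F7 replicate 1 or 3 (edgeR adjusted p = 0.053 to 0.082). ROBO4, best known in endothelial cells, is the neighbour of ROBO3 in the RefSeq annotation and went the other way. Its raw counts were 51, 40 and 36 in MC-F7 against 18, 12 and 21 in MT-F7, a 2.70-fold decrease (log2 fold change -1.43, SE 0.39, edgeR adjusted p = 0.019). The call was lost without MC-F7 replicate 1 or without MT-F7 replicate 1 or 2 (edgeR adjusted p = 0.057 to 0.081).

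Among the netrins 1 gene was higher and 2 were lower of 5 tested, beside 11.9% higher and 11.3% lower of all genes. NTN1, the secreted netrin best known as an axon attractant, was at 1.59, 1.08 and 1.03 CPM in MC-F7 against 3.23, 3.90 and 6.11 CPM in MT-F7. The 3.56-fold increase had a log2 fold change of 1.83 (SE 0.33, edgeR adjusted p = 0.0017). NTN5 had the highest per-length level of the netrins, at 29.1, 24.7 and 27.1 CPM in MC-F7 against 15.9, 16.8 and 13.2 CPM in MT-F7. It was lower in each MT-F7 library (1.76-fold, log2 fold change -0.82, SE 0.16, edgeR adjusted p = 0.0034). NTN5 overlaps SEC1 in the RefSeq annotation, which had 15 to 48 counts per library and a log2 fold change of -1.18 (edgeR adjusted p = 0.076). NTNG1, a netrin-G held at the membrane by a lipid anchor, was at 11.2, 16.0 and 16.3 CPM in MC-F7 against 8.45, 6.76 and 9.55 CPM in MT-F7. This decrease was also 1.76-fold (log2 fold change -0.81, SE 0.21, edgeR adjusted p = 0.013), and it lost its call without replicate 2 of either group (edgeR adjusted p = 0.071 without that of MC-F7 and 0.063 without that of MT-F7) and in limma's fits of the per-length values. NTN3 averaged 0.954 and 1.97 CPM with groups that did not overlap (edgeR adjusted p = 0.094), but it passed the low-count filter in only 2 MC-F7 libraries. NTNG2 averaged 4.40 and 5.27 CPM (edgeR adjusted p = 0.51). NTN4 was too low to be tested, with raw counts of 1, 9 and 16 in MC-F7 against 13, 9 and 10 in MT-F7.

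Of the netrin receptors, NEO1 was the most abundant per length and the one called. Neogenin also binds the repulsive guidance molecules. It was at 25.0, 29.2 and 26.4 CPM in MC-F7 against 42.9, 41.8 and 44.9 CPM in MT-F7. The 1.61-fold increase (log2 fold change 0.69, SE 0.15, edgeR adjusted p = 0.0050) was well beyond the replicate spread of 2.14 and 1.59 CPM (SD, n = 3). DCC, the netrin receptor that mediates attraction, had raw counts of 7, 19 and 7 in MC-F7 against 21, 23 and 43 in MT-F7. The groups did not overlap, but the log2 fold change of 1.29 (SE 0.52) did not pass (edgeR adjusted p = 0.094). DCC passed the filter on low counts in 1 MC-F7 and 3 MT-F7 libraries, so a difference was built into its being tested. UNC5B (6.13 to 8.41 CPM, edgeR adjusted p = 0.14) and UNC5C (2.42 to 3.87 CPM, edgeR adjusted p = 0.12), receptors for repulsion, did not pass either, and UNC5A averaged 0.905 and 0.622 CPM (edgeR adjusted p = 0.46). UNC5A overlaps HK3 in the annotation. UNC5D was too low to be tested, with raw counts of 5, 7 and 8 in MC-F7 against 5, 16 and 15 in MT-F7.

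Levels of different genes were compared on the deposited per-length values, called TPM by the authors, in which library size is still contained. The roundabout genes summed to 2.95, 3.0 and 2.56 in MC-F7 against 11.9, 11.9 and 17.7 in MT-F7. This 4.86-fold difference was the largest of the 7 families. ROBO3 made up 28.8 ± 5.08% of the roundabout sum in MC-F7 against 64.1 ± 9.95% in MT-F7 (SD, n = 3), and ROBO1 went from 66.8 ± 4.82% to 35.1 ± 9.91%. The order of these receptors was therefore exchanged, although the level of ROBO1 itself was higher in MT-F7. By mean per-length level ROBO3 ranked 17 among the 49 members in MC-F7 against 2 in MT-F7, behind PLXNB2.

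In the plexins the sum was 14.4 ± 1.95 in MC-F7 against 19.9 ± 4.02 in MT-F7, of which PLXNB2 took 69.5% and 75.0%. The share of PLXND1 fell from 13.8 ± 0.83% to 4.25 ± 0.49%, and that of PLXNA2 went from 1.72 ± 0.52% to 4.80 ± 0.71% (SD, n = 3). The slits summed to 0.799 ± 0.025 and 1.57 ± 0.19, the netrin receptors to 1.34 ± 0.18 and 2.25 ± 0.029, and the neuropilins to 0.588 ± 0.18 and 0.249 ± 0.079. The netrins summed to 3.93 ± 0.18 and 2.99 ± 0.18, with the share of NTN5 going from 69.7 ± 4.93% to 56.8 ± 6.78% and that of NTN1 from 2.02 ± 0.50% to 10.4 ± 3.53%. In the roundabout genes, slits, netrin receptors, neuropilins and netrins the groups did not overlap, also after the values were scaled for library size, and the two-sided exact permutation p was 0.1 (adjusted p = 0.117 over the 7 families), the smallest this test can give with 3 against 3. The plexin sums did not overlap as deposited, with the same p, but they did once scaled to equal column sums (two-sided exact permutation p = 0.2) or to the effective library size (two-sided exact permutation p = 0.3). The semaphorins summed to 24.1 ± 1.76 and 25.4 ± 3.15, with overlapping groups (two-sided exact permutation p = 0.6).

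**Figure D3:**
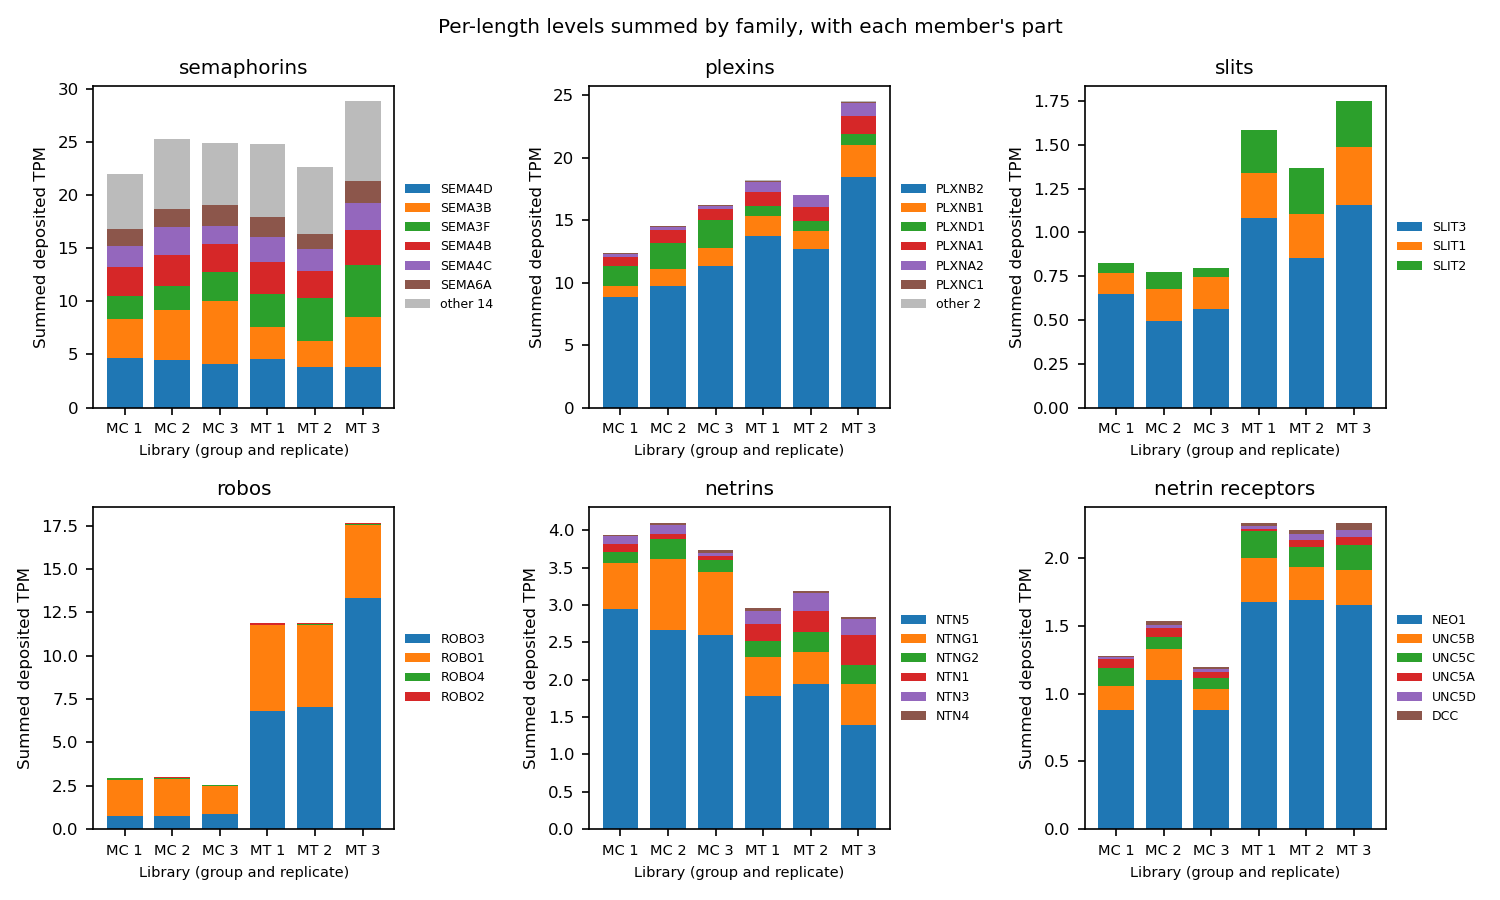
Deposited TPM summed over the members of 6 families in each library (MC-F7 replicates 1 to 3, then MT-F7 replicates 1 to 3), with colours for the members and grey for the remaining low members. The roundabout bars are higher in MT-F7 through ROBO3 and ROBO1, the netrin bars are lower with less NTN5, and the semaphorin bars overlap.

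The other genes of these pathways were read from a list of co-receptors and partner ligands and a list of intracellular effectors. Of 25 co-receptor and partner genes in the table, 20 were tested, and 5 were higher and 2 lower in MT-F7, or 35.0% called against 23.2% of all genes. ISLR2, a neuronal membrane protein with leucine-rich repeats, went from 0.843 ± 0.59 to 5.98 ± 0.66 CPM (log2 fold change 2.80, edgeR adjusted p = 0.00041). Raw counts of ISLR2 were 20, 34 and 5 in MC-F7 against 165, 158 and 124 in MT-F7. MC-F7 replicate 3 was thus under the low-count filter. DSCAM, an adhesion protein that also binds netrin, fell from 1.87 ± 0.32 to 0.601 ± 0.21 CPM (log2 fold change -1.63, edgeR adjusted p = 0.011). FLRT2 and FLRT3, which bind UNC5 receptors, were higher with log2 fold changes of 1.44 and 1.39 (edgeR adjusted p = 0.015 and 0.00023), and FLRT3 was the more abundant by CPM at 58.5 ± 7.72 and 153 ± 36.5. CNTN2, an axonal adhesion protein, went from 6.85 ± 2.66 to 16.6 ± 5.44 CPM (log2 fold change 1.27, edgeR adjusted p = 0.0062). The remaining calls were KDR, higher, and L1CAM, lower. Both lower calls were lost without MC-F7 replicate 2 or without MT-F7 replicate 1. CHL1 and TREM2 had no count in any library, and LRRC4C and RGMB were not analysed here.

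Among the 50 effectors, all tested, 9 were higher and 4 lower in MT-F7, and these 13 (26.0%) were near the 23.2% called among all genes. GAP43, a growth cone protein, went from 0.571 ± 0.54 to 4.40 ± 0.87 CPM (log2 fold change 2.93, edgeR adjusted p = 0.00093). Its raw counts were 27, 8 and 4 in MC-F7 against 121, 129 and 80 in MT-F7. MC-F7 replicates 2 and 3 were under the low-count filter, so a difference was built into GAP43 being tested. SRGAP3, of the family of GTPase-activating proteins that bind roundabout receptors, went from 8.52 ± 1.49 to 27.7 ± 6.86 CPM (log2 fold change 1.70, edgeR adjusted p = 0.00011), and its relatives SRGAP1 and SRGAP2 were not called. DPYSL3, of the collapsin response mediator family that acts below semaphorin receptors, went from 7.65 ± 0.46 to 23.8 ± 3.52 CPM (log2 fold change 1.64, edgeR adjusted p = 3.5e-05). MICAL2, of the plexin-linked actin-oxidising enzymes, fell from 71.3 ± 4.83 to 30.5 ± 1.70 CPM (log2 fold change -1.22, edgeR adjusted p = 7.6e-05), and ABLIM3, an actin-binding LIM protein, fell from 3.81 ± 0.82 to 1.10 ± 0.58 CPM (log2 fold change -1.78, edgeR adjusted p = 0.0048). The small GTPases RAC1, CDC42 and RHOA, through which many guidance receptors act on actin, had log2 fold changes of -0.24, 0.22 and 0.047 and did not pass. The effector median was 0.21, and 8 effectors were called without MC-F7 replicate 2.

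**Figure D4:**
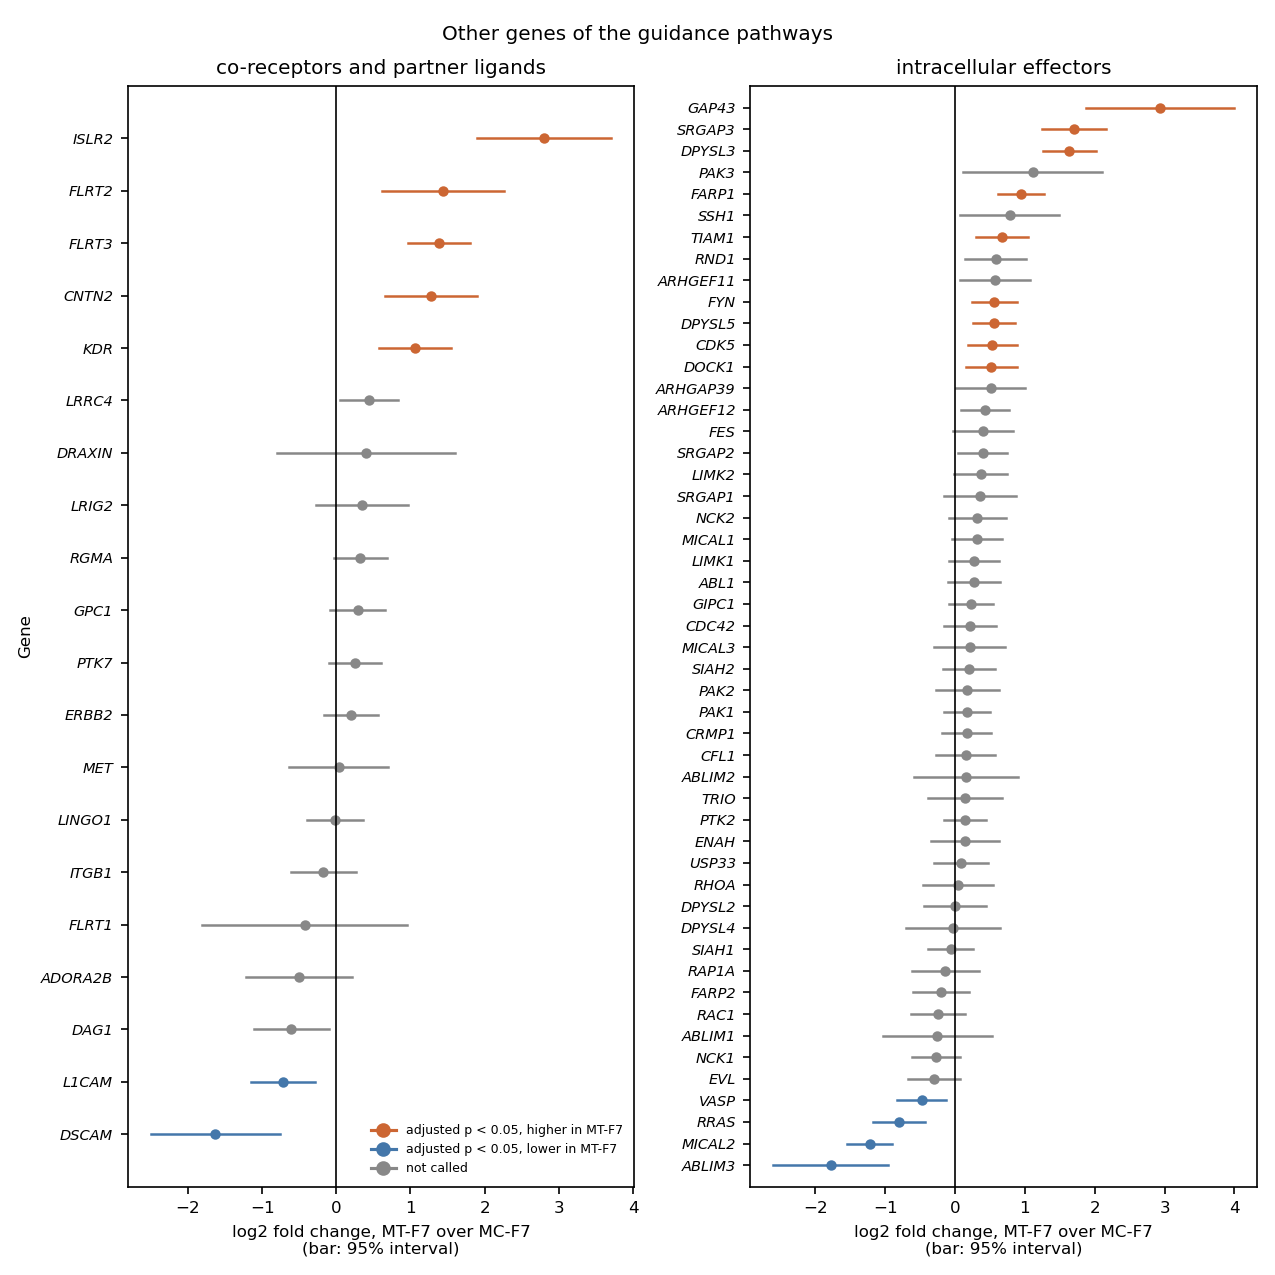
Log2 fold change of MT-F7 over MC-F7 (points) with 95% intervals (bars) for the 20 tested co-receptor and partner genes (left) and the 50 effectors (right), with orange for called higher, blue for called lower and grey for not called. ISLR2 and GAP43 lie at the top of their lists, and DSCAM and ABLIM3 at the bottom. Neither ISLR2 nor GAP43 passed the low-count filter in every MC-F7 library.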

How the data were processed

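Total RNA of floating cells was sequenced as paired-end libraries. The authors aligned the filtered reads to an Ensembl Bos taurus genome with HISAT2 2.0.5 and counted them on genes with featureCounts 1.5.0-p3, and the deposited count table holds raw counts for Entrez genes. The genome build is not given in the sources used here, so no coordinates are printed. In the second deposited table the authors converted these counts to a per-length signal that they call TPM. It is not TPM in the strict sense, because the columns sum to about 154763 to 164394 rather than 1000000 and the ratio of value to count of each guidance gene is the same in every library. Duplicate lines, which affected 159 Ensembl identifiers of it, were dropped after the first. Gene symbols and neighbours came from the RefSeq table of assembly ARS-UCD2.0, which named 19074 of the 19163 genes.

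The counts were fitted over all genes with edgeR 4.0.16 (TMM factors, filterByExpr with a minimum count of 10 and a minimum total of 15, glmQLFit and glmQLFTest with group only, two-sided, Benjamini-Hochberg over 13001 genes, threshold 0.05), after a test on simulated data. SE is the log2 fold change divided by the root of the F statistic, and intervals are 95%. Family sums used exact permutation. Other settings were RLE factors, library size only, DESeq2 1.42.0, no filter, a replicate block, mitochondrial genes removed, limma 3.58.1 on log2(TPM + 1) and log2(TPM + 0.1), and each library left out. Family sums were also scaled for library size. The members and gene lists were chosen with earlier results of these data known, so no list was tested against all genes. The exact permutation tests compared family sums between the groups, carry the same limit of choice and could not reach 0.05. The roundabout, neuropilin and netrin sums consist mostly of called genes, so they add little to those calls. Values per library were given for called members and for the member with the highest mean per-length level of each family, raw counts for untested members with over 3 counts in a library, and in each pathway list the 5 calls farthest from 0 on the log2 scale. Further genes named there, and those whose values are given beside a neighbour, were chosen after their values were seen.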

Additional observations from a re-analysis of the deposited data

How the results depend on the processing

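Of the 16 called guidance genes, 11 passed under all 14 alternatives and none changed sign. Of the 29 not called, 9 passed under at least 1 of them (SEMA3B, SEMA5B, SEMA6B, SEMA6C, PLXNB1, PLXNB2, SLIT1, NTN3 and UNC5C). The count of calls was 15 to 18 with RLE factors, library size only, DESeq2, no filter, mitochondrial genes removed or limma. With an absolute log2 fold change over 1.5 and an unadjusted p under 0.05 it was 7 (6 higher and 1 lower). With an adjusted p under 0.05 and an absolute log2 fold change over 1 it was 11, of which 3 lower. Leaving out 1 library gave 13 to 18 calls (8 to 12 higher, 3 to 7 lower, the 3 without MT-F7 replicate 2), 4 to 9 co-receptor calls (4 to 6 higher, 0 to 3 lower) and 8 to 15 effector calls (5 to 11 higher, 3 to 4 lower). Both limma fits gave 1 lower co-receptor call. The median log2 fold change was 0.071 by limma on log2(TPM + 1), where the larger pseudocount shrinks low genes, and 0.18 to 0.55 with 1 library left out. The netrin sum had a log2 ratio of -0.68 when a gene needed a mean TPM of 1 or more. That filter left NTN5 as the only netrin, and no neuropilin and no slit. The log2 ratio of the netrin sum was -0.52 when divided by effective library size, an alternative chosen after seeing the data (as was the endothelial sum without TEK). That division put the semaphorin log2 ratio at -0.046 (0.079 as deposited). Some genes near no change changed sign without passing. Over the fits with 1 library left out, SEMA3G ranged from -1.03 to 0.11, SEMA4B from -0.15 to 0.096, SEMA4C from -0.072 to 0.18 (-0.053 without MC-F7 replicate 3), SEMA6A from -0.29 to 0.096 (0.024 without MC-F7 replicate 3), PLXNC1 from -0.11 to 0.49 and NRP2 from -0.37 to 0.12 (0.082 without MT-F7 replicate 3). By limma SEMA4B was at 0.068 and 0.087, and SEMA6A at 0.014 and 0.015, with pseudocounts of 1 and 0.1. The cause was not tested.

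The replicate numbers were not taken to pair the libraries, since the correlations of deviations of same-numbered libraries were 0.17, 0.071 and 0.50 and did not all pass 0.1. Of the 6 libraries, 2 correlated best with their own number, both of replicate 3, which also had the highest mitochondrial shares (28.3 and 27.9%). With the replicate block 24 guidance genes were called (16 higher, 8 lower), as were 20 effectors (16 higher). Depth limits the low members, and SEMA3E, ROBO2, ROBO4 and DCC rest on fewer than 60 counts in each library.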

Other observations

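Pairs of a ligand and its receptor, of receptors or of ligands were compared on the per-length values within each library. The pairs were chosen after their values were seen, and no test was made. The ratio of ROBO3 to ROBO1 was 0.383, 0.360 and 0.564 in MC-F7 against 1.39, 1.48 and 3.19 in MT-F7. The ratio of PLXNA2 to PLXND1 was 0.177, 0.0926 and 0.110 in MC-F7 against 1.04, 1.2 and 1.14 in MT-F7, so both plexins stood at about the same level in MT-F7. SEMA3E over its receptor PLXND1 was at most 0.0154 in MC-F7 against at least 0.155 in MT-F7. SEMA3A over NRP1 was 0.491 to 0.686 in MC-F7 against 2.78 to 5.05 in MT-F7. NTN1 over NTN5 was 0.0240 to 0.0347 in MC-F7 against 0.129 to 0.294 in MT-F7. NRCAM, an adhesion protein of the co-receptor list that was too low to be tested, was at 0.133, 0.0415 and 0 CPM in MC-F7 against 0.159, 0.618 and 1.02 CPM in MT-F7. Its highest MC-F7 value rests on 3 counts and its lowest MT-F7 value on 4. CD72, also untested, went the other way, with raw counts of 7, 8 and 17 in MC-F7 against 3, 5 and 11 in MT-F7. The untested ITGA1 had 0, 6 and 2 against 7, 6 and 1.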
